A study of Mus musculus with 4 samples.

Results

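The 10 transcription factors *Pou5f1*, *Nanog*, *Esrrb*, *Zfp42*, *Klf2*, *Klf4*, *Klf5*, *Tfcp2l1*, *Tbx3* and *Sall4* were followed through 3 mouse cell lines profiled by CapSeq, a split-pool single-cell RNA-sequencing method. They were taken by symbol from the 33565 genes listed in the deposited count matrices, all 10 were found, and all 10 had at least 10 UMIs (unique molecular identifiers, each standing for 1 captured transcript) over the 3 lines together. Mouse embryonic stem cells (mESCs, the E14TG2a line) were grown on gelatin with 15% fetal bovine serum, 1000 U/mL leukemia inhibitory factor (LIF), 3 µM CHIR99021 and 1 µM PD0325901. N2a (Neuro-2a, a neuroblastoma line) and NIH/3T3 (an embryonic fibroblast line) were grown with 10% serum and without LIF or either inhibitor, so cell line and medium cannot be told apart. Each line filled 4 columns of the first barcode plate (BC1) of 1 experiment and has 1 sample-resolved library, so that no test between lines was possible and each value is given with a 95% interval for counting error only, an exact Poisson interval for a level and an exact binomial interval for a share.

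The naive state of pluripotency is the state of the pre-implantation epiblast, held in culture by a network of transcription factors that bind one another's genes. LIF acts through STAT3 on *Klf4* and *Tfcp2l1*. CHIR99021 inhibits GSK3 and thereby relieves the repression of *Esrrb*, *Klf2*, *Nanog* and *Tfcp2l1* by TCF7L1, and PD0325901 blocks the MEK and ERK signal that drives exit from the state. Each of the 10 genes encodes a DNA-binding protein: *Pou5f1* (OCT4) and *Nanog* the homeodomain factors at the core, *Esrrb* an orphan nuclear receptor, *Zfp42* (REX1) and *Sall4* zinc-finger proteins, *Klf2*, *Klf4* and *Klf5* Kruppel-like factors, *Tfcp2l1* a member of the grainyhead family and *Tbx3* a T-box factor.

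To show sequence upstream of these genes, the 250 bases before the start of the canonical transcript are printed for 4 of them. The sequence is from the GRCm39 genome, 5′ to 3′ on the strand of the gene, with any motif matches in capitals. *Nanog* (chr6:122684237-122684486, + strand) and *Zfp42* (chr8:43760153-43760402, − strand) are shown for their OCT4 motifs, *Tfcp2l1* (chr1:118555386-118555635, + strand) for its KLF motifs, and *Klf4* (chr4:55532467-55532716, − strand) as the gene most shared with NIH/3T3. Other annotated transcripts start further upstream, so the *Nanog* window lies inside the annotated span of its gene and the *Klf4* window overlaps the upstream edge of its own.
Nanog: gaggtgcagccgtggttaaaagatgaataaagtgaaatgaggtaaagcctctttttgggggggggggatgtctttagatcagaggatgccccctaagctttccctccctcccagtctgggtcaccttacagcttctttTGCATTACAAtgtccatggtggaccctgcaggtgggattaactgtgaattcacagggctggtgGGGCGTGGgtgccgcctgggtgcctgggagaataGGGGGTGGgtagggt
Zfp42: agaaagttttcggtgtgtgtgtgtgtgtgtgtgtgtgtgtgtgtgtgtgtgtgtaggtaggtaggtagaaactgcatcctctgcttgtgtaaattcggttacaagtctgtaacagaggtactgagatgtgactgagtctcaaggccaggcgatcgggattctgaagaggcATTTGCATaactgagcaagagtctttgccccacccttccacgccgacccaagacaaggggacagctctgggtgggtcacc
Tfcp2l1: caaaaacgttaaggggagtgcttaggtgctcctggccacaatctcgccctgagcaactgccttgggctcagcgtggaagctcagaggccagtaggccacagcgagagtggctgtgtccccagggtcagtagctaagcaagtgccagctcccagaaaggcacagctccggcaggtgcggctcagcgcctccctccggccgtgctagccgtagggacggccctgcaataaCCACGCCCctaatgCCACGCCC
Klf4: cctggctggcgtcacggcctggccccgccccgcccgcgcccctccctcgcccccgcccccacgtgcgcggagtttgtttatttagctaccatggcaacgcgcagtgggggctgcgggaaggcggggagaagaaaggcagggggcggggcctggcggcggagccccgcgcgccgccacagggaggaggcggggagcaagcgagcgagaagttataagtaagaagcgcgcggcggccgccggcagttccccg

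Letters were searched on both strands in the same window of 21303 protein-coding genes. The *Nanog* window held the composite OCT4 and SOX2 motif as TGCATTACAA (any base was allowed at its sixth letter), found in 0.249% of all windows, with its first base 112 bases before the start, and it also held 2 matches to the KLF motif (GGGNGTGG, 16.9% of windows). The octamer alone (ATGCAAAT, 1.5% of windows) was present on the opposite strand of the *Zfp42* window, 80 bases before the start. A pair of KLF matches lay in the last 22 bases of the *Tfcp2l1* window, and the *Klf2* window held 1. A match to the motif of TFCP2L1, CCNG and CNGG with any 6 bases between them (14.4% of windows), was found in the *Tbx3* window. No window of the 10 genes (0) held the ESRRB motif TCAAGGTCA, the T-box motif AGGTGTGA, the STAT3 motif TTCCNGGAA or the TCF motif CTTTGATC, which were present in 0.432%, 0.972%, 0.953% and 0.634% of all windows, and the *Klf4* window held no match at all. These are matches of letters in a short window and do not show binding.

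Barcodes were used as cells if they held 1000 UMIs or more, of which no more than 20% were mitochondrial. This left 2323 N2a, 2037 NIH/3T3 and 2137 mESC barcodes, with 17955221, 11697865 and 12322098 UMIs and a median of 6185, 4863 and 4803 UMIs per cell, and no cell barcode was shared between lines (0). Other markers were compared with the labels of the lines. All 12 mESC markers outside the 10 factors were at least 4-fold higher in mESCs than in either other line, led by *Dppa5a*, *Cobl* and *L1td1*, the N2a markers summed to 1604 CPM (UMIs per 1000000 UMIs of the line's cells) in N2a against 23.5 CPM in mESCs, and the NIH/3T3 markers to 5445 CPM in NIH/3T3 against 109 CPM in mESCs. In N2a the latter summed to 1199.9 CPM, of which *S100a6* made up 738 CPM and *Lgals1* 459 CPM. Levels below are CPM over all cells of a line, and are compared between lines for 1 gene at a time, not between genes.

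Of the 10 factors, 9 were at least 4-fold higher in mESCs than in the higher of the other lines, and *Klf4* was not. By the same rule, log2((CPM + 1)/(CPM + 1)) of at least 2, 6.03% of the 19248 genes with at least 10 UMIs were higher in mESCs and 2.08% were lower than in both other lines, where none of the factors was found (0). The median log2 difference was 6.54 for the 10 factors and −0.38 for all genes tested. The genes fell into a set found almost only in mESCs (*Pou5f1*, *Nanog*, *Esrrb*, *Zfp42*, *Klf2* and *Sall4*, at 0.5% or less of the mESC level elsewhere) and *Tfcp2l1*, *Tbx3*, *Klf5* and *Klf4*, which were also measured in 1 or both of the other lines.

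*Pou5f1*, the POU factor required by pluripotent cells of the embryo, was at 57.8 CPM in mESCs (53.6 to 62.2), 0.223 CPM in N2a (0.0607 to 0.57) and 0.0855 CPM in NIH/3T3 (0.00216 to 0.476). The last of these rested on 1 UMI, and the 4 UMIs of N2a gave an interval that overlapped it. For *Nanog*, which stabilises self-renewal, the level was 572 CPM in mESCs (558 to 585), 1.56 CPM in N2a (1.04 to 2.25) and 1.2 CPM in NIH/3T3 (0.654 to 2.01), and the order of the 2 low lines was again within counting error. *Sall4*, a zinc-finger partner of OCT4, was at 259 CPM in mESCs (250 to 268) and at 0.278 and 0.427 CPM in N2a and NIH/3T3, from 5 UMIs each.

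*Esrrb*, a direct target of TCF7L1 repression, was at 357 CPM in mESCs (346 to 367), 1.78 CPM in N2a (1.22 to 2.52) and 1.28 CPM in NIH/3T3 (0.718 to 2.11). *Zfp42*, the classical REX1 marker that is lost on leaving the naive state, was at 1318 CPM in mESCs (1298 to 1338), 0.78 CPM in N2a (0.426 to 1.31) and 1.2 CPM in NIH/3T3 (0.654 to 2.01), and its 1101-fold excess over the higher other line was the largest of the 10. *Klf2*, the Kruppel-like factor whose protein is stabilised by MEK inhibition, was at 294 CPM in mESCs (285 to 304), 0.891 CPM in N2a (0.509 to 1.45) and 0.94 CPM in NIH/3T3 (0.469 to 1.68). For these 6 genes mESCs stood 200-fold to 1101-fold above the higher other line, and in cells N2a and NIH/3T3 did not differ beyond their intervals. With all barcodes of each matrix the range was 166-fold to 399-fold, and *Zfp42* in NIH/3T3 was at 3.26 CPM (2.37 to 4.37), above the 1.21 CPM of N2a (0.783 to 1.79).

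The other 4 genes differed between N2a and NIH/3T3 beyond their counting intervals. The share of all genes that did so was not computed. The 6 genes above had only 1 to 32 UMIs in each of these lines, so small differences in them could not be resolved. *Tfcp2l1*, a target of STAT3, was at 713 CPM in mESCs (698 to 728), 9.64 CPM in N2a (8.25 to 11.2) and 1.03 CPM in NIH/3T3 (0.53 to 1.79), so N2a lay above NIH/3T3 with intervals apart. *Tbx3*, which also acts in limb and heart development, showed the opposite order with 415 CPM in mESCs (403 to 426), 25.7 CPM in NIH/3T3 (22.9 to 28.8) and 0.557 CPM in N2a (0.267 to 1.02). *Klf5*, broadly used in epithelia, was at 326 CPM in mESCs (316 to 336), 28.2 CPM in N2a (25.8 to 30.7) and 18.8 CPM in NIH/3T3 (16.4 to 21.5), again with all 3 intervals apart.

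*Klf4*, which also works in differentiating epithelia and in fibroblasts, was at 229 CPM in mESCs (220 to 237), 128 CPM in NIH/3T3 (121 to 135) and 12 CPM in N2a (10.4 to 13.7). The mESC level was 1.79-fold that of NIH/3T3 and 19.1-fold that of N2a, and *Klf4* was the gene of the 10 with the smallest excess in mESCs. NIH/3T3 thus held 55.9% of the mESC level of *Klf4* and 6.2% of that of *Tbx3*, and N2a held 8.64% of that of *Klf5* and 5.23% of that of *Klf4*.

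**Figure D1:**
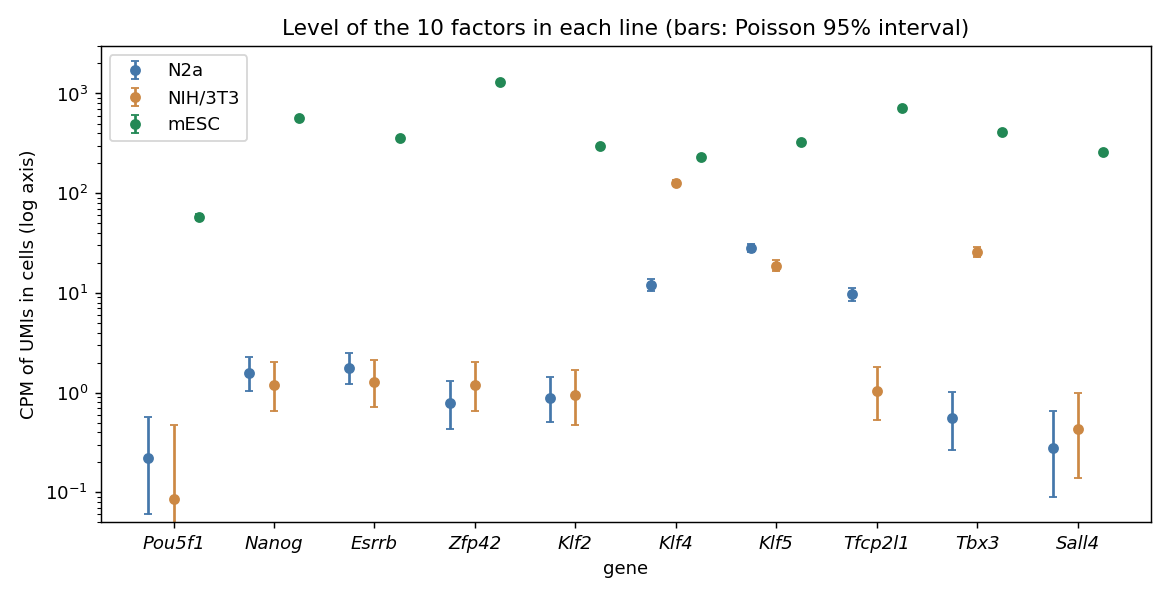
Level of each of the 10 factors in CPM on a log axis for N2a (blue), NIH/3T3 (orange) and mESCs (green), with Poisson 95% intervals for counting error as bars and 1 library per line. The mESC point is highest for all 10 genes, and *Klf4* has the smallest gap, 229 CPM in mESCs against 128 CPM in NIH/3T3.

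The few UMIs outside mESCs were set beside material that came with the cells. Barcodes of the NIH/3T3 matrix with fewer than 100 UMIs, which are not counted as cells, held *Klf4* at 123 CPM and *Tbx3* at 25 CPM, 96.1% and 97.2% of the level in NIH/3T3 cells, and those of the mESC matrix held the 10 factors at 90.8% to 111% of the mESC level. In the same NIH/3T3 barcodes *Zfp42* was at 19.1 CPM, 16 times its level in NIH/3T3 cells and 1.45% of that in mESCs. At least 2 UMIs of *Klf4* were held by 342 NIH/3T3 cells and up to 9 by a single one, against 23 N2a cells with a maximum of 3. The mESC markers were then summed over 11 of the 12. *Dppa2*, at 67.2 CPM in N2a and 8.81 CPM in NIH/3T3, was left out. The summed level was 24.2 CPM (20.5 to 28.3) in NIH/3T3 cells with a *Klf4* UMI and 22.1 CPM (18.3 to 26.5) in those without. For *Tbx3* the same levels in NIH/3T3 were 31.6 CPM (24.4 to 40.2) and 21.4 CPM (18.6 to 24.6), intervals that overlapped only at their ends. For *Klf5* and *Tfcp2l1* in N2a they were 17.9 against 16.8 CPM and 15.2 against 17.3 CPM, with overlapping intervals. The part of carried-over RNA in the lowest levels was not tested.

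The spread between BC1 sequences, 32 of which made up each line, gave a measure of spread within the library. It also includes differences between the cells of each sequence. *Nanog* lay between 506 and 676 CPM over the 32 mESC sequences (median 576) and *Zfp42* between 1067 and 1693 CPM (median 1278). The standard deviation of *Zfp42* over them was 151 CPM, where counting alone would give 60.5 CPM, and for *Nanog* it was 48.8 against 39.9 CPM. For 9 of the 10 genes the lowest mESC sequence lay above the highest sequence of the other lines. The exception was *Klf4*, with 158 to 321 CPM in mESCs (median 222) and 84.7 to 208 CPM in NIH/3T3 (median 122), so that single sequences of these lines overlapped although their totals did not. The share of all genes whose mESC sequences lay apart in this way was not computed. Between N2a and NIH/3T3, single sequences overlapped for *Klf5* (6.32 to 51.6 against 8.46 to 33.5 CPM). They also did for *Tfcp2l1* (1.84 to 25.3 against 0 to 8.05 CPM), but not for *Tbx3* or *Klf4*.

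Counting may be incomplete for genes with near-identical copies. The canonical transcripts were aligned to the GRCm39 genome, and copies with at least 95% identity over at least 300 bases were found outside the gene for 4 of the 10. The last 385 bases of the 1488-base *Pou5f1* transcript (gene at chr17:35816789-35822274, + strand) matched chr1:159121375-159121759, within *Cop1*, at 100% identity, which covered 77% of the last 500 bases of the transcript. *Nanog* (chr6:122679780-122691601, + strand) had the copy *Nanog-ps1* on chromosome X (1325 bases, 97.4% identity), *Zfp42* (chr8:43743871-43760152, − strand) had *Zfp42-ps1* on chromosome 15 (at best 98.5% identity), and *Klf4* (chr4:55527139-55532528, − strand) had copies on chromosomes 14 and 15 (at best 96.6% identity). Reads from these stretches may be shared between loci, so the levels of these 4 genes are uncertain, and how far this lowers the *Pou5f1* count was not tested. The other 6 genes had no such copy (0), but *Pou5f1*, *Esrrb*, *Klf2*, *Tbx3* and *Sall4* have antisense neighbours among the listed genes that touch their exons, and whether strand was used in counting is not given in the sources used here.

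The share of cells with a UMI followed the levels. *Zfp42* was detected in 94.6% of mESCs (93.5% to 95.5%), *Tfcp2l1* in 87.1%, *Nanog* in 82.5%, *Tbx3* in 75.3%, *Esrrb* in 73.9%, *Klf5* in 68.4%, *Klf2* in 66.3%, *Sall4* in 65.1%, *Klf4* in 56.8% and *Pou5f1* in 25.9%. Because depth differed between lines, 1000 UMIs were also drawn at random from each cell, and every cell was deep enough for this. At this depth *Zfp42* was found in 69.1% of mESCs (67.1% to 71.1%), *Nanog* in 41.8%, *Klf4* in 18.8% (17.2% to 20.5%) and *Pou5f1* in 5.76% (4.81% to 6.83%). In NIH/3T3 *Klf4* was then found in 11.4% of cells (10% to 12.8%), *Tbx3* in 2.45% and *Klf5* in 1.96% (1.41% to 2.66%). In N2a *Klf5* was found in 2.76% (2.13% to 3.5%), an interval that overlapped that of NIH/3T3, *Klf4* in 1.08% and *Tfcp2l1* in 1.03%. All other shares outside mESCs were under 0.2%, including 0 of 2323 N2a and 0 of 2037 NIH/3T3 cells for *Pou5f1*.

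**Figure D2:**
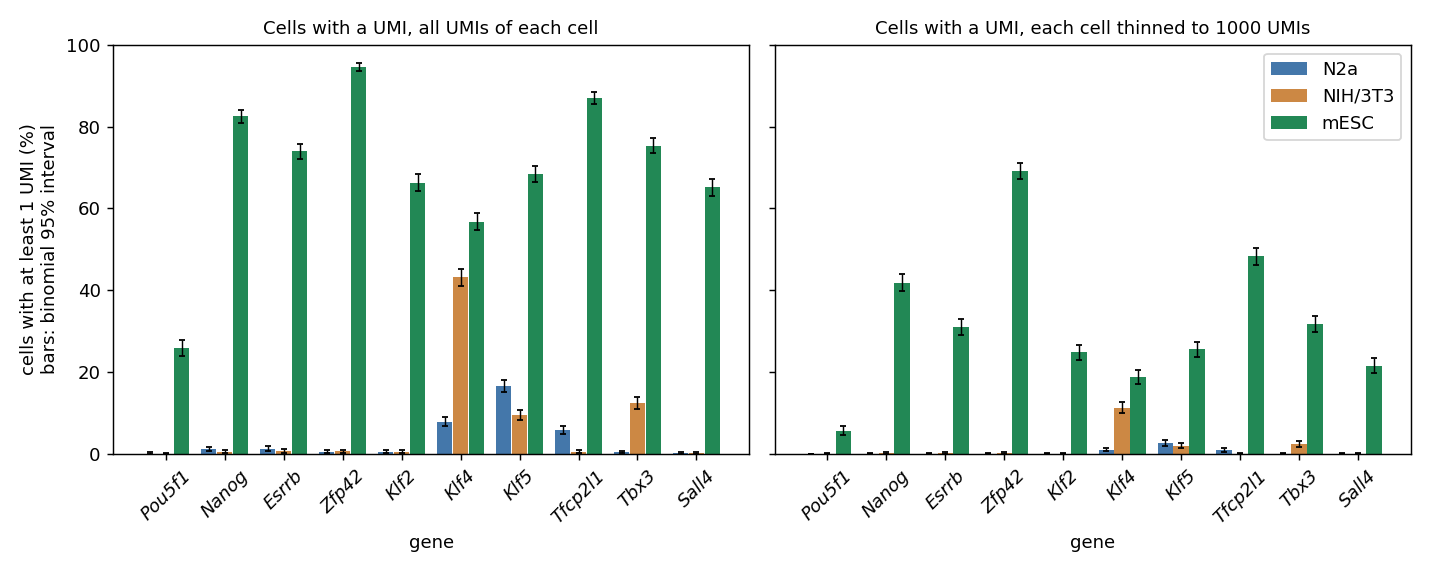
Percent of cells with at least 1 UMI of each factor in N2a (blue), NIH/3T3 (orange) and mESCs (green), with all UMIs (left) and with each cell thinned to 1000 UMIs (right); bars are binomial 95% intervals. *Klf4* is the one gene found in a large share of another line, 43.2% of NIH/3T3 cells with all UMIs and 11.4% at 1000 UMIs.

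Most mESCs carried most of the factors. A median of 7 of the 10 was detected per mESC, 185 of the 2137 cells held all 10, 84.7% held at least 5 and 12 held none. In N2a and NIH/3T3 no cell held 5 or more (0), the highest number was 4 in both lines, and 71.2% and 46.2% of cells held none. After thinning to 1000 UMIs the 10 genes summed to a median of 4 UMIs per mESC, and 51 mESCs (2.39%) held none, against 94.7% of N2a and 84.5% of NIH/3T3 cells. All 1574 mESCs deep enough to be thinned to 3000 UMIs held at least 1 factor (0 without).

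**Figure D3:**
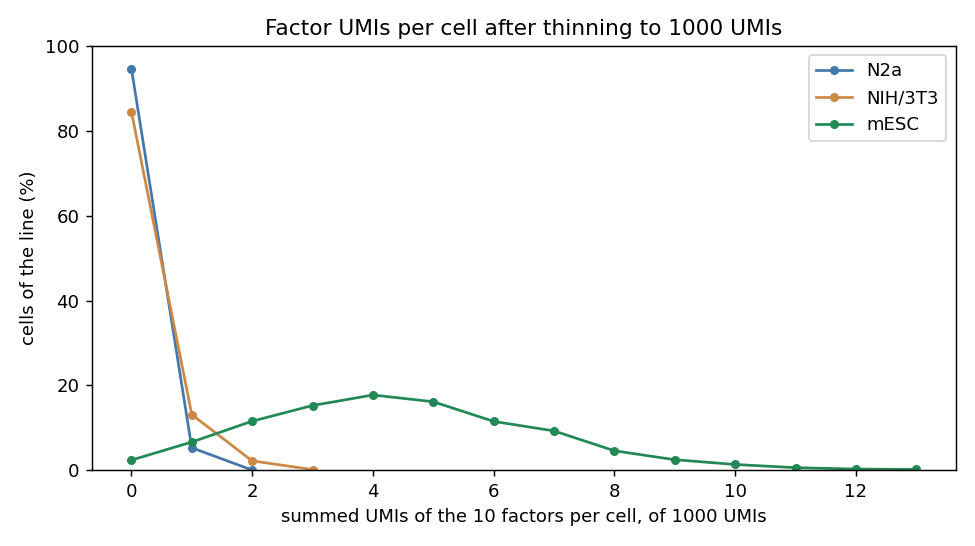
Percent of cells of each line (vertical axis) by the summed UMIs of the 10 factors after thinning to 1000 UMIs per cell (horizontal axis). The mESC distribution has 1 peak at 4 UMIs and reaches 13, while no N2a cell exceeds 2 and no NIH/3T3 cell exceeds 3.

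Variation between mESCs was then separated from counting error. At 3000 UMIs per cell the squared coefficient of variation beyond counting, (variance − mean)/mean squared, was 0.132 ± 0.0252 (SE over 1574 cells) for *Nanog*, 0.12 ± 0.0131 for *Zfp42*, 0.137 ± 0.0212 for *Tfcp2l1* and 0.151 ± 0.0391 for *Esrrb*. It was 0.119 ± 0.0341 for *Tbx3* and 0.109 ± 0.0502 for *Sall4*, and higher for the Kruppel-like factors at 0.274 ± 0.0502 for *Klf2*, 0.253 ± 0.062 for *Klf4* and 0.292 ± 0.0477 for *Klf5*. For *Pou5f1*, at 0.185 ± 0.208, it was not resolved from 0, and at 1000 UMIs per cell the estimates for it (−0.185), *Esrrb* (−0.00322) and *Sall4* (−0.0424) were below 0. Only 2 of the 10 estimates stayed within 1 SE at 1000 UMIs, so the order of the genes is uncertain. The median over the 10 factors was 0.144 and that over the 4428 genes with at least 50 CPM in mESCs was 0.225, and 7 of the 10 lay below the latter. In NIH/3T3 *Klf4* was at 0.585 ± 0.116 in 1500 cells, above 90.3% of the 4698 genes with at least 50 CPM there, where the median gene was at 0.19. The difference between the lines was not tested, as these errors are over cells of 1 library each.

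With all UMIs, more mESCs lacked each factor than counting alone would give. The share of all genes with such an excess was not computed. With all UMIs 116 mESCs held no *Zfp42* UMI where counting at the depth of each cell would leave 58, and at 3000 UMIs 62 of 1574 did where 28.1 were to be counted. For *Nanog* 373 mESCs were empty against 269 by counting, for *Tfcp2l1* 276 against 191, for *Tbx3* 527 against 413, for *Klf5* 675 against 542, for *Klf4* 923 against 758 and for *Klf2* 720 against 603. The gap was smaller for *Esrrb* (557 against 492) and *Sall4* (745 against 681), and smallest for *Pou5f1* (1584 against 1568). At 1000 UMIs no excess was left for *Esrrb* (1473 against 1477), *Sall4* (1676 against 1677) or *Pou5f1* (2014 against 2015). With all UMIs *Zfp42*, of the 10 genes the one of highest level, had the highest ratio of empty cells to those given by counting. Such a ratio is not comparable between genes of unlike level. The squared coefficient of variation of *Zfp42* beyond counting, 0.12, lay below that of the median gene, 0.225. At 3000 UMIs, mESCs without a *Zfp42* UMI held the other 9 factors at 2747 CPM (2514 to 2996), below the 3228 CPM (3176 to 3281) of mESCs with one. Cells without *Nanog*, *Klf2*, *Klf4* or *Tbx3* also held less of the other 9, at 93% to 95.5% of the level in positive cells with intervals apart, and for the other 5 genes the intervals overlapped. Without the cells rich in 2-cell-like transcripts described below, the intervals stayed apart for *Zfp42*, *Klf4* and *Tbx3* and overlapped for *Nanog* and *Klf2*. All these intervals treat UMIs as independent and do not cover differences between cells. The summed UMIs of the 10 factors had a variance over mean of 1.51 at 3000 UMIs, so gaps of a few percent are uncertain.

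Co-variation across mESCs depended on depth. With counts scaled to 10000 per cell and ln(1 + x) taken, Pearson's r over 2137 mESCs was above 0 for all 45 pairs of factors, where 85.4% of all pairs of genes with at least 50 CPM were above 0, and 21 pairs reached 0.1, where 1.73% of all such pairs did. The highest were *Nanog* with *Zfp42* (0.22), *Zfp42* with *Tfcp2l1* (0.19) and *Zfp42* with *Klf5* (0.15), and the median was 0.0953. On this scale each factor also rose with the total UMIs of the cell (r of 0.135 to 0.288 with their logarithm). After thinning to 3000 UMIs, where that r was −0.0134 to 0.103, 1 pair of the 45 remained at 0.1 or more (background 0.0963%), 31 were above 0 (background 50.1%) and the median was 0.0238. The remaining pair was *Nanog* with *Zfp42* at 0.1, and *Zfp42* with *Tfcp2l1* was at −0.02. On plain counts the *Nanog* and *Zfp42* pair had an r of 0.0964, where counting at this depth would allow at most 0.246. In counts this sparse such weak values are a description of these cells, which share 1 library and 1 culture. In N2a and NIH/3T3 no pair reached 0.1 on the scaled counts (0 of 45 each). After thinning, 1 pair did in N2a (*Klf4* with *Sall4*, 0.11, background 0.349%) and 2 did in NIH/3T3 (*Klf2* with *Tbx3*, 0.13, and *Nanog* with *Esrrb*, 0.12, background 0.286%), each with at least 1 gene of very few UMIs, so the number of pairs at 0.1 did not set mESCs apart at this depth.

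**Figure D4:**
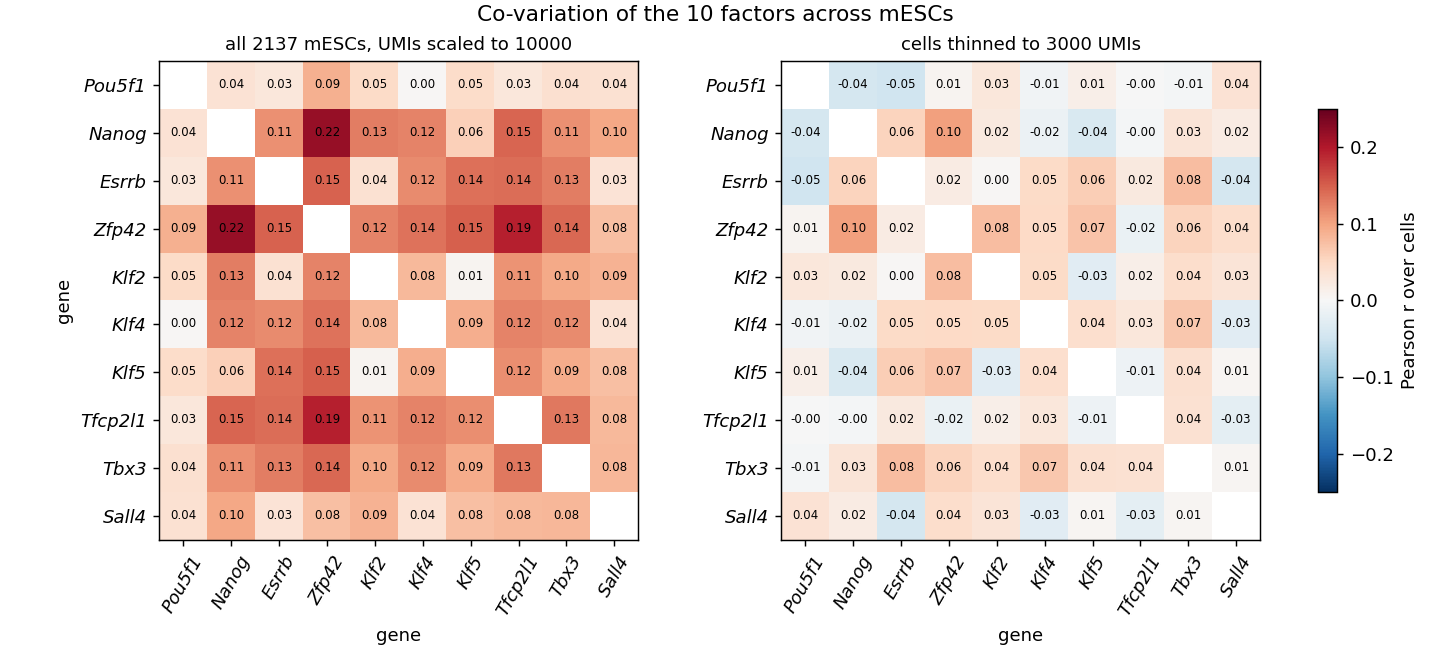
Pearson r over mESCs for each pair of the 10 factors, red above 0 and blue below, with counts scaled to 10000 in all 2137 cells (left) and in 1574 cells thinned to 3000 UMIs (right). The uniform red of the left panel fades on the right, where *Nanog* with *Zfp42* is the highest at 0.1.

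The genes most like the mean of the 10 factors over mESCs were broadly expressed ones, *Ptma* (r = 0.35), *Set* (0.35), *Rpl14* (0.32), *Sumo2* (0.31) and *Rest* (0.31), whose r was 0.0479 to 0.109 after thinning. The highest after thinning were *Npm1* (0.13), *Kat6b* (0.12), *Set* (0.11), *Actb* (0.11) and *Etv5* (0.11), of which *Set* alone was among the former 5. The lowest were *Csmd1* (−0.29), *5430402O13Rik* (−0.28), *Ccser1* (−0.25), *Dlgap2* (−0.24) and *Neto2* (−0.22), and the same 5 genes were lowest after thinning, at −0.122 to −0.128. *Csmd1* was among the 2 lowest genes for 8 of the 10 factors taken singly, and *Klf5* (*Parm1*, −0.09) and *Sall4* (*Cemip*, −0.05) were the exceptions. For single factors the values that stayed above 0.1 on thinning were few. *Klf5* with *Epb41l4a* went from 0.23 to 0.15 and with *Rbpj*, the effector of Notch signalling, from 0.16 to 0.11. *Zfp42* with *Tet1*, which oxidises methylated cytosine, went from 0.27 to 0.15, with *Npm1* from 0.27 to 0.14 and with *Ptma* from 0.29 to 0.1. For *Pou5f1* (*C1qbp*, 0.11 to 0.0565), *Nanog* (*Ptma*, 0.25 to 0.0624), *Esrrb* (*Sumo2*, 0.16 to 0.0243), *Klf2* (*Arl6ip1*, 0.18 to 0.013) and *Sall4* (*Cip2a*, 0.14 to 0.042) the nearest gene fell below 0.1, as it did for *Klf4* (*Cd9*, 0.16 to 0.0687), *Tfcp2l1* (*Nedd4*, 0.22 to 0.0855) and *Tbx3* (*Jarid2*, 0.17 to 0.0715). At 3000 UMIs the factors had r of −0.0556 to 0.0797 with the summed S phase genes and −0.0561 to 0.0515 with the G2/M genes.

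A few cells in mESC cultures pass through a 2-cell-like state, known by transcripts of the *Zscan4* family and other genes of the 2-cell embryo. At least 3 UMIs of these genes were held by 93 of 2137 mESCs and by no N2a or NIH/3T3 cell (0), and their median depth was 4235 UMIs against 4849 in the other mESCs. In the 93 cells *Esrrb* was at 175 CPM (138 to 219) against 363 CPM (353 to 374) in the other mESCs, which was 48.2%. *Tfcp2l1* was at 467 against 722 CPM (64.6%), *Klf2* at 202 against 298 CPM (67.9%), *Zfp42* at 936 against 1332 CPM (70.3%) and *Tbx3* at 339 against 418 CPM (81.2%), all with intervals apart. The intervals overlapped for *Pou5f1* (58.4 against 57.8 CPM), *Nanog* (575 against 572 CPM), *Sall4* (247 against 259 CPM), *Klf4* (209 against 230 CPM) and *Klf5* (285 against 328 CPM). Thus 5 of the 10 factors were lower in these cells, where 25.9% of 4428 genes were lower by the same rule, and none was higher (0), where 8.13% of genes were, and the median gene stood at 85.4% of its level in the other mESCs. The intervals treat UMIs as independent and do not cover differences between cells, and all 93 cells came from 1 culture.

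**Figure D5:**
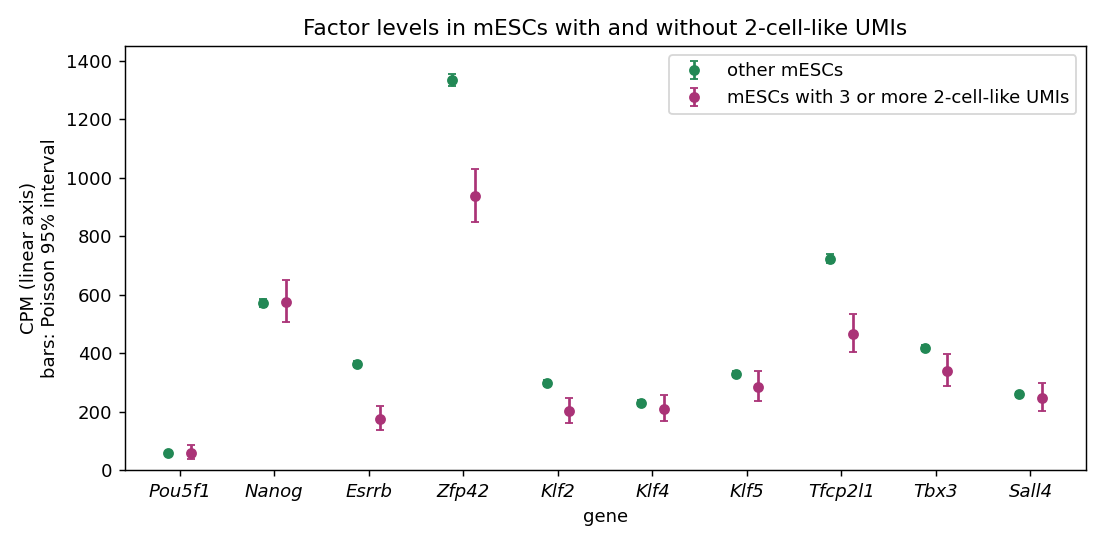
Level in CPM (linear axis, Poisson 95% intervals as bars) of each factor in the 93 mESCs with at least 3 UMIs of 2-cell-like genes (purple) and in the 2044 other mESCs (green). *Esrrb* stands at 175 against 363 CPM, whereas the intervals of the 2 groups overlap for *Pou5f1*, *Nanog* and *Sall4*.

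Genes that work with the 10 factors were taken from lists. Of 14 naive network partners with enough UMIs, 11 were at least 4-fold higher in mESCs than in either other line and 0 lower. Over all genes tested, 6.03% were higher and 2.08% lower. The 3 partners of highest level were *Rif1* (1106 CPM in mESCs), the repressor *Tcf7l1* (601 CPM) and *Etv5* (321 CPM, below the fold required). *Sox2*, the partner of OCT4 on the composite motif, had 0 UMIs in mESCs, which allows up to 0.243 CPM, and 0 in both other lines. The *Sox2* gene (chr3:34704554-34706610, + strand) lies inside *Sox2ot* (chr3:34158419-34789489) on the same strand, and *Sox2ot* was counted at 59.6 CPM in mESCs, 118 CPM in N2a and 3.68 CPM in NIH/3T3. How reads of the overlap were assigned is not given in the sources used here, so the level of *Sox2* is uncertain.

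Of the signalling lists, 1 of 11 LIF and STAT3 genes was higher in mESCs (*Pim1*, 164 CPM against 25.6 CPM in N2a), with *Jak1* and *Stat3* next in level at 122 and 99.4 CPM. By the same rule 6.03% of all genes tested were higher and 2.08% lower, so 1 of 11 lies near the share of all genes. Of 12 Wnt and GSK3 target genes 3 were higher, *Cdx1* (35.7 CPM), *Tcf7* (32.1 CPM) and *Notum* (24.7 CPM), while the 3 of highest level, *Ctnnb1*, *Znrf3* and *Ccnd1*, were not. None of 13 FGF and ERK target genes was higher (0), including the 3 of highest level, *Etv5*, *Spred2* (212 CPM) and *Spred1* (49.8 CPM). The 3 genes lower in mESCs than in both other lines are early outputs of ERK, *Dusp6* at 9.5 CPM against 48.2 and 85.2 CPM in N2a and NIH/3T3, *Egr1* at 6.09 against 202 and 30.9 CPM and *Dusp4* at 2.68 against 97.2 and 22.3 CPM. These lists have median log2 differences of −0.68, 0.86 and −2.73, beside −0.38 over all genes tested.

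Genes of neighbouring states gave mixed counts, where 6.03% of all genes tested were higher in mESCs and 2.08% lower. Of 12 formative and primed genes 5 were higher in mESCs and 1 (*Sox4*) lower, and the 5 were *Dnmt3b* (57.9 CPM), *Zic2* (23 CPM), *Foxd3* (18.7 CPM), *Otx2* (6.74 CPM) and *Eomes* (5.76 CPM). *Dnmt3a* (75.8 CPM) and *Nes* (23.1 CPM), also among the 3 of highest level, were below the fold required, the primed marker *T* was at 0.406 CPM and *Fgf5* had no UMI (0). Of 10 primitive endoderm genes 1 was higher (*Lama1*, 63.1 CPM) and 1 lower (*Gata4*, 2.27 CPM), with *Lamb1* and *Col4a1* at 19.6 and 15.3 CPM and the defining *Gata6* and *Sox17* at 1.22 and 0.406 CPM. Of 6 trophectoderm genes 2 were higher (*Tfap2c*, 69.6 CPM, and *Krt8*, 9.17 CPM), *Tead4* was at 54.6 CPM, and *Cdx2* was at 0.487 CPM. Of 9 2-cell-like genes 8 were higher, led by *Gm21761* (37.7 CPM), *Zscan4d* (18.8 CPM) and *Zscan4c* (15.9 CPM).

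Relatives of the factors were counted by the same rule. Of 15 Kruppel-like factor genes tested, *Klf2*, *Klf4* and *Klf5* themselves among them, 3 were higher in mESCs, *Klf2*, *Klf5* and *Klf15* (6.01 CPM), and 1 was lower, *Klf7*, at 20.1 CPM against 215 CPM in N2a and 107 CPM in NIH/3T3. *Klf9* was at 295 CPM in mESCs and 79.8 CPM in NIH/3T3, below the fold required. Among 15 paralogs of the other factors 1 was higher, *Sall1* (97.3 CPM), where 6.03% of all genes tested were. *Pou2f1*, *Yy1* and *Ubp1*, the 3 of highest level, were less than 4-fold above the higher of the other lines. No S phase gene (led by *Hells*, *Uhrf1* and *Mcm3*) and no G2/M gene (led by *Top2a*, *Smc4* and *Mki67*) of 30 each was higher or lower by this rule (0).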

How the data were processed

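RNA of 3 mouse cell lines was measured by CapSeq in 1 experiment. The authors trimmed and aligned the reads to GRCm39 and counted them with STARsolo, and deposited raw counts of UMIs for every gene in every possible barcode as 4 matrices, 1 pooled and 3 resolved by BC1, each with 33565 genes and 884736 barcodes and no cell filter. The pooled matrix holds the same reads and was used as an alternative. The 10 genes and all gene lists were chosen with earlier results of these data known, and the genes named are the 10 factors, the 3 highest and 2 lowest in r per factor (5 and 5 for their mean) and the 3 of highest mESC level per list. Other genes (*Egr1*, *Dusp4*, *Dusp6*, *Sox2*, *Sox2ot*, *Sox4*, *Gata4*, *Sall1*, *Klf7*, *Klf15*, *Cdx1*, *Tcf7*, *Notum*, *Zic2*, *Foxd3*, *Otx2*, *Eomes*, *S100a6*, *Lgals1* and the defining markers at or near 0) were chosen after their values were seen.

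From the deposited counts, barcodes of 1000 UMIs or more with no more than 20% of them mitochondrial were kept, UMIs were summed per line (CPM), and a pseudocount of 1 CPM and a minimum of 10 UMIs per gene were used for folds. Cells were thinned without replacement to 1000 or 3000 UMIs, which at 3000 left out 20.4% of N2a, 26.4% of NIH/3T3 and 26.3% of mESCs. No doublet caller was run and the effect of the 5% deepest cells was examined instead. Intervals at 95% and the limit of 3 counts for a count of 0 cover counting error only. GENCODE M39 annotation (32953 of 33565 identifiers matched) gave positions. No p-value was computed, since each line has 1 library. Scripts were tested on simulated data with pandas 2.3.3, pysam 0.24.0, scipy 1.17.1, blastn 2.17.0 and numpy 2.4.6 under Python 3.11.15.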

Additional observations from a re-analysis of the deposited data

Results flagged for a closer look

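Barcodes with fewer than 100 UMIs took no part in the comparisons between lines, and in them 6 values of the factors lay above the level in the cells of the same line with intervals apart, and above the limit that a count of 0 allows (1.62 CPM in N2a, 2.21 CPM in NIH/3T3). In the N2a matrix *Esrrb* was at 6.5 CPM against 1.78 CPM in cells and *Zfp42* at 5.96 against 0.78 CPM. In the NIH/3T3 matrix *Zfp42* was at 19.1 CPM against 1.2 CPM in cells, *Tfcp2l1* at 8.09 against 1.03 CPM, *Nanog* at 7.36 against 1.2 CPM and *Klf2* at 6.62 against 0.94 CPM. These values rest on 9 to 26 UMIs each, and their source was not tested.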

How the results depend on the processing

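The count of 9 factors higher in mESCs held with at least 2000 UMIs per cell, the STARsolo calling rule, all barcodes, the pooled matrix, without the 5% deepest cells, with a pseudocount of 0.1 CPM, a log2 minimum of 1 and no filter, and the summed level of the 10 factors in mESCs moved only from 4540 to between 4504 and 4560 CPM. With all barcodes the NIH/3T3 levels of *Zfp42* (1.2 to 3.26 CPM) and *Tfcp2l1* (1.03 to 1.93 CPM) moved beyond their intervals. Shares followed depth, with a median over the 10 factors in mESCs of 28.3% at 1000 UMIs, 59.9% at 3000 UMIs and 71.2% without thinning. The 21 pairs at r of 0.1 or more became 6 with Spearman's rho, 1 after thinning to 3000 UMIs, 1 with residuals of a Poisson depth model and 5 with at least 3000 UMIs per cell, and 14 to 22 under the other alternatives. The share of all pairs of genes at 0.1 or more also fell on thinning, from 1.73% to 0.0963%, so the drop is not particular to the factors. Without the cells of at least 3 2-cell-like UMIs, 8 pairs fell below 0.1 and 1 rose to it or above. Of the pairs at 0.1 or more, 4 went below 0 on thinning (*Nanog* with *Klf4* −0.0155 and with *Tfcp2l1* −0.00432, *Zfp42* −0.0169 and *Klf5* −0.0119 with *Tfcp2l1*), and *Zfp42* with *Tfcp2l1* did so in the residuals (−0.00116). At 1000 UMIs the variation beyond counting was below 0 for *Pou5f1* (−0.185), *Esrrb* (−0.00322) and *Sall4* (−0.0424), while the median over the factors was 0.118 against 0.144. By gene, 2 estimates stayed within 1 SE of their value at 3000 UMIs, 5 moved beyond it and these 3 changed sign. Without the 5% deepest cells 5 of the 10 moved. The cause of these changes was not tested. The minimum of 3 UMIs for 2-cell-like cells was also set to 1 and 10 after seeing the data, which gave 4 and 6 lower factors instead of 5. The share of all genes lower in such cells was computed only at the minimum of 3 UMIs, where it was 25.9%. No paired analysis was possible because each line has 1 library. *Pou5f1* had the fewest UMIs of the 10 factors in mESCs, 712, so its relative counting error was the largest. The reason for its low count was not tested.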

Other observations

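*Klf4* was the one factor with at least 50 CPM in NIH/3T3, and its relations there were looked at after its variation was seen. At 3000 UMIs over 1500 NIH/3T3 cells the genes of highest r with *Klf4* were *Asap1* (0.12), *Slco3a1* (0.1) and *Dbi* (0.0971), and the lowest was *Tra2a* (−0.09). Its r was −0.05 with the S phase genes, −0.02 with the G2/M genes, −0.03 with the NIH/3T3 markers and 0.02 with the FGF and ERK target genes. Such weak values in sparse counts are given as a description only.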
